A study of Arabidopsis thaliana with 30 samples.

Results

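A set of 127 probe sets of the Affymetrix ATH1 array, out of 22746 that are not array controls, was followed through leaves of Arabidopsis thaliana plants in which WRKY40 or WRKY63 was overexpressed or lacking. The members were chosen by their group means of log2(signal + 1) in untreated leaves. A member lay at least 1 lower in the WRKY40 overexpressor than in Col-0, at least 0.8 higher in the WRKY63 overexpressor than in Col-0, and at 7 or more in the WRKY63 overexpressor, a signal of 127. Opposite positions of the overexpressors in untreated leaves are therefore the criterion and not a result. The genes GRX480, WRKY53 and WRKY6 were left out by name, of which WRKY53 and WRKY6 met the criteria.

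The plants were 21 days old, grown on soil in 16 h of light and 8 h of dark. A WRKY63 overexpressor (OE_WRKY63.3), a WRKY63 knockout (Atwrky63), a WRKY40 overexpressor (OE_WRKY40.4), a WRKY40 knockout (Atwrky40) and Col-0, the standard accession, were sampled both without treatment and after 1 h of strong light (high light, 1000 µE m-2 s-1). That gave 10 groups of 3 arrays. Each overexpressor was a single line, so an effect of the transgene cannot be told apart from an effect of that line, and the labels name neither the promoter nor the knockout alleles. The labels do not say whether replicate arrays came from separate plants, so the spread that p-values rest on may be a technical one.

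WRKY proteins are plant transcription factors that bind a short promoter element, the W-box, and many of them take part in responses to pathogens. WRKY40 is known mainly as a repressor of defence genes, acting with its close relatives, and both WRKY40 and WRKY63 have been studied as regulators of stress-responsive genes for mitochondrial and chloroplast proteins. Receptor kinases at the cell surface, secreted chitinases, glucanases and proteases, and cytochrome P450 enzymes are typical products of defence genes. The transcripts of WRKY40 and WRKY63 were not analysed here, because no probe set is paired with either name in the annotation used, so the lines could not be checked on their own transcripts.

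Of the 127 members, 61 name 1 gene (60 genes, since AT1G31690 has 2 probe sets), 2 name several genes and 64 are unnamed here and are called by their probe set. Of the 127, 8 are of a kind that can bind transcripts of several genes, such as 254265_s_at, and their signal may be shared. Group means of the linear signal of the members ran from 133 to 9716 (median 682) in the untreated WRKY63 overexpressor, from 7.88 to 2295 (median 73.3) in the untreated WRKY40 overexpressor, and from 37.4 to 5656 (median 220) in untreated Col-0. On the log2 scale the WRKY63 overexpressor lay 0.80 to 5.10 above Col-0 (median 1.48) and the WRKY40 overexpressor lay between -4.05 and -1.004 relative to Col-0 (median -1.43). These values selected the members, so no test of them is given.

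The thresholds cut through continuous distributions. AT1G51890 was just inside the WRKY40 criterion at -1.004 and AT2G39710 just outside at -0.992. The probe set 245265_at was just inside the WRKY63 criterion at 0.804 and 255502_at just outside at 0.786. AT2G44380 was just inside the level criterion at 7.05 and AT1G67000 just outside at 6.97. The WRKY40 criterion was met by 1043 probe sets, the WRKY63 criterion by 2093 and the level criterion by 12812, all of them together by 129. With the overexpressors exchanged in the rule, 19 probe sets met it.

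The deposited values are MAS5 signals scaled to a common mean. Array medians over all probe sets lay between 168 and 186 on untreated arrays and between 148 and 164 on high light arrays, so the 2 did not overlap. RNA quality was read from actin, whose log2 ratio of 3' over 5' signal was between 1.38 and 1.83 on 28 arrays. It was 2.35 on Col-0 untreated array 2 and 2.32 on WRKY63 overexpressor high light array 3. Leaf markers were high on all arrays, LHCB4.2, a light-harvesting protein gene, at 9337 to 27537 and RCA, whose protein activates Rubisco, at 23461 to 38076, against 74.1 to 807 for the root marker PYK10 and 113 to 251 for the guard cell regulator FAMA. The marker lists for trichomes, phloem, flowers and seeds had no named probe set. In whole leaves, fewer cells of a type and less RNA per cell cannot be told apart.

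The median signal of all 127 members was 460, 287 and 602 on the 3 high light arrays of the WRKY63 overexpressor. It was 114, 87.9 and 95.4 in the WRKY63 knockout, 151, 134 and 128 in the WRKY40 overexpressor, 139, 260.4 and 180.4 in the WRKY40 knockout, and 116, 85.9 and 130 in Col-0. After high light the WRKY63 overexpressor thus stood above all other lines, and the arrays of the WRKY40 overexpressor and of Col-0 overlapped. In untreated leaves the medians were 759, 683 and 601 in the WRKY63 overexpressor, 92.5, 102 and 124 in the WRKY63 knockout, 72.2, 85.4 and 65.7 in the WRKY40 overexpressor, 206, 165 and 211 in the WRKY40 knockout, and 132, 277 and 204 in Col-0. The 2 arrays with the high actin ratio had the highest median of their groups, 602 and 277. The part of RNA quality in the members' level was not tested, and counts without these arrays are given where they matter.

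Single members followed this order to different degrees. After high light the WRKY63 overexpressor had the highest group mean for 107 of the 127 members, the WRKY40 knockout for 11, the WRKY40 overexpressor for 4, the WRKY63 knockout for 3 and Col-0 for 2. The lowest group mean was in the WRKY63 knockout for 48 members, in the WRKY40 overexpressor for 40, in Col-0 for 27 and in the WRKY40 knockout for 12. In untreated leaves, where the rule used 3 of the 5 lines, the highest mean was in the WRKY63 overexpressor for 120 members and in the WRKY40 knockout for 7. The lowest was in the WRKY40 overexpressor for 97, in the WRKY63 knockout for 24 and in the WRKY40 knockout for 6. These counts were not made over all probe sets, so how far the members depart from the whole array is not known.

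The widest gap between the untreated overexpressors was at AT4G16260, of the beta-1,3-glucanase family of cell wall hydrolases. It gave 2675, 2337 and 2242 in the WRKY63 overexpressor, 28.8, 10.1 and 15.4 in the WRKY40 overexpressor and 376, 866 and 75.1 in Col-0. The overexpressors did not overlap, and the Col-0 arrays were far apart from each other. The unnamed 259550_at gave 2920.2, 2633 and 2667 in the WRKY63 overexpressor, 8.41, 28.3 and 32.2 in the WRKY40 overexpressor and 41.5, 160.1 and 217 in Col-0. The unnamed 266070_at gave 8878, 9476 and 7408 in the WRKY63 overexpressor, 72.2, 179 and 35.5 in the WRKY40 overexpressor and 110.2, 377 and 369 in Col-0. Replicates were close in the WRKY63 overexpressor and several-fold apart in the WRKY40 overexpressor and in Col-0 for these probe sets.

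Another 5 probe sets complete the 8 with the widest gap. The unnamed 250286_at gave 2263, 2153 and 2167 in the WRKY63 overexpressor, 99.7, 16.4 and 14.2 in the WRKY40 overexpressor and 69.3, 114 and 114 in Col-0. AT1G05340 gave 2035, 1867 and 1494 in the WRKY63 overexpressor, 29.5, 33.3 and 56.98 in the WRKY40 overexpressor and 57.3, 1828 and 58.2 in Col-0. In Col-0 the level of AT1G05340 was high on the array with the high actin ratio only. The unnamed 249890_at gave 2121, 1882 and 2263 in the WRKY63 overexpressor, 48.9, 53.98 and 39.4 in the WRKY40 overexpressor and 77.3, 250.4 and 272 in Col-0. AT3G18250 gave 2606, 3045 and 2772 in the WRKY63 overexpressor, 45.6, 165 and 43.04 in the WRKY40 overexpressor and 177, 597 and 306 in Col-0. ZCF37 stood out by its low end, with 472, 457 and 431 in the WRKY63 overexpressor, 14.7, 6.65 and 11.6 in the WRKY40 overexpressor and 90.8, 169.9 and 424 in Col-0.

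The high light arrays played no part in the choice of the members, and they allowed the WRKY63 overexpressor to be tested. Probe sets with a mean log2(signal + 1) of at least 5.57 over all arrays, a signal of 46.7, were tested. The arrays that chose the members are part of that mean. Of the 127 members 112 passed, and limma's p was adjusted over all 15922 probe sets tested. After high light 76 of the 112 members tested were higher in the WRKY63 overexpressor than in Col-0 and 0 were lower, at an adjusted p under 0.05. Of all probe sets tested, 5.49% were higher and 4.69% were lower. The log2 difference of the members tested had a median of 1.81 and ran from -0.57 to 5.64, beside a median of -0.06 over all. It lay above 0 for 110 of the 112, beside 42.4% of all probe sets tested. An unadjusted p under 0.05 was found for 96 of the 112, beside 24.5% of all probe sets tested. Without the filter on dim probe sets, 77 of all 127 members were higher. The count of members higher was 54 without WRKY63 overexpressor high light array 3 and 56 without both arrays with the high actin ratio.

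The 3 largest differences after high light were at unnamed probe sets. The probe set 259550_at gave 1322, 755 and 1980.02 in the WRKY63 overexpressor and 63.8, 4.29 and 45.5 in Col-0, a log2 difference of 5.64 ± 0.86 (SE, limma adjusted p = 0.000137). For 266070_at the signals were 2947, 3206 and 3991 in the WRKY63 overexpressor and 68.9, 79.2 and 149.7 in Col-0, a log2 difference of 5.15 ± 0.44 (SE, limma adjusted p = 1.38e-07). The groups did not overlap at either probe set. For 250286_at they were 923, 211 and 1442 in the WRKY63 overexpressor and 15.3, 17.04 and 28.6 in Col-0, a difference of 4.996 ± 0.58 (SE, limma adjusted p = 5.32e-06). The unnamed 254265_s_at differed less than the first named genes given next. For 254265_s_at they were 3515, 948 and 6103 in the WRKY63 overexpressor and 241, 109 and 193 in Col-0, a difference of 3.98 ± 0.59 (SE, limma adjusted p = 0.000105). WRKY63 overexpressor array 2 was the lowest of its group at all 4 except 266070_at, and still above Col-0.

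Among named genes AT4G00700, a protein with C2 domains, which bind membrane lipids, gave 254, 115 and 509 in the WRKY63 overexpressor and 5.06, 8.73 and 46.03 in Col-0, a log2 difference of 4.14 ± 0.72 (SE, limma adjusted p = 0.000516). AT5G08240 gave 607, 121 and 788 in the WRKY63 overexpressor and 11.2, 40.3 and 23.5 in Col-0, a difference of 4.07 ± 0.58 (SE, limma adjusted p = 6.09e-05). AT3G18250 gave 391, 63.05 and 894 in the WRKY63 overexpressor and 9.88, 7.81 and 53.7 in Col-0, a difference of 4.02 ± 0.86 (SE, limma adjusted p = 0.00328). These genes were dim in Col-0 after high light, so the fold depends on the pseudocount of 1, and the call of AT3G18250 ended in a fit of only the 6 arrays compared, at the same 4.02. The cytochrome P450 gene CYP71B23, of a family of oxidising enzymes, gave 504, 237 and 842 in the WRKY63 overexpressor and 81.3, 10.6 and 32.1 in Col-0, a difference of 3.88 ± 0.58 (SE, limma adjusted p = 0.000115).

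Some members were grouped by the kind of gene product, a grouping drawn up after the values had been seen. Only 37 of the 127 were given a kind, and none of the unnamed ones, so the groups do not describe the whole set. Shares by kind were not counted over all probe sets. Of all members tested, 67.9% were higher in the WRKY63 overexpressor than in Col-0 after high light. The grouped members include 9 protein kinases. After high light 8 of the 9 were higher in the WRKY63 overexpressor than in Col-0, with log2 differences from 0.72 to 2.64 over all 9. AT4G08850, the leucine-rich repeat receptor kinase MIK2, which senses cell wall and peptide signals, gave 1822, 719.9 and 2857 in the WRKY63 overexpressor and 405, 433 and 344 in Col-0, a difference of 1.98 ± 0.31 (SE, limma adjusted p = 0.000184). The kinase gene AT1G66880 gave 876, 572 and 1458 in the WRKY63 overexpressor and 171, 115 and 152 in Col-0, a difference of 2.64 ± 0.26 (SE, limma adjusted p = 8.51e-07). AT5G38210, another kinase, differed by 2.39 ± 0.50, and the leucine-rich repeat receptor kinases AT5G59680, AT1G51890 and AT5G25930 by 2.21 ± 0.65, 1.67 ± 0.49 and 1.21 ± 0.29. The kinase gene AT1G76360 differed by 0.96 ± 0.28. The lectin receptor kinase AT2G19130 differed by 1.34 ± 0.32, a call that ended without WRKY63 overexpressor array 3 (1.05). The call of AT5G25930 ended without that array too (1.01). That of AT5G59680 ended without Col-0 array 2 (2.09) or 3 (1.75) or WRKY63 overexpressor array 1 (2.05) or 3 (2.31). That of AT1G51890 ended without any Col-0 array (1.46 to 1.78) and without WRKY63 overexpressor array 1 (1.35) or 3 (1.43). That of AT1G76360 ended without Col-0 array 1 (0.92) or 2 (0.90) or WRKY63 overexpressor array 1 (0.83) or 3 (0.76). AT2G28940 was the 1 kinase gene not called (0.72 ± 0.34). The calls of AT4G08850, AT1G66880 and AT5G38210 held without any 1 array, but that of AT5G38210 ended in a fit of only the 6 arrays compared, at the same 2.39.

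Of 12 probe sets for secreted or cell wall proteins, 10 were tested and 8 of these were higher in the WRKY63 overexpressor after high light. The pectin methylesterase gene ATPMEPCRB, whose enzyme modifies wall pectin, gave 1122, 1203 and 2033 in the WRKY63 overexpressor and 171, 209 and 331 in Col-0, a difference of 2.61 ± 0.33 (SE, limma adjusted p = 1.39e-05). The cupredoxin gene AT4G39830 differed by 3.04 ± 0.55, the matrix metalloproteinase gene AT1G24140 by 2.098 ± 0.51, and AT5G48540, which codes for a secreted protein with DUF26 domains, by 1.17 ± 0.29. The call of AT5G48540 ended without WRKY63 overexpressor array 1 (0.93). The chitinase family gene CHI differed by 2.45 ± 0.70, but its call ended without Col-0 array 2 (2.16) or 3 (2.50) and without WRKY63 overexpressor array 1 (2.43) or 3 (1.89). The amine oxidase gene AT1G31690 differed by 1.08 ± 0.26 at the 1 of its 2 probe sets that was tested, a call that ended without WRKY63 overexpressor array 2 (0.85). The subtilase gene SBT3.3, a protease linked to immune priming, was not called (1.22 ± 0.52), nor was AT4G16260 (1.68 ± 0.75).

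AT4G16260, the member with the widest gap in untreated leaves, gave 318, 57.1 and 409 in the WRKY63 overexpressor after high light and 81.3, 50.2 and 53.9 in Col-0, so the groups overlapped. Members with ankyrin repeats, C2 domains or a place in membranes numbered 9 and are called the membrane group. Of these, 8 were higher in the WRKY63 overexpressor. AT5G52750, with a heavy-metal-associated domain, gave 3243, 1267 and 2196 in the WRKY63 overexpressor and 356, 513 and 374 in Col-0, a difference of 2.35 ± 0.35 (SE, limma adjusted p = 8.81e-05). The ankyrin repeat genes AT4G11000, AT2G24600 and AT4G03450 differed by 1.91 ± 0.35, 1.700 ± 0.30 and 1.49 ± 0.43. The call of AT4G03450 ended without Col-0 array 2 (1.25) or 3 (1.51) and without WRKY63 overexpressor array 1 (1.06) or 3 (1.11). The P-type ATPase gene ACA.l was not called (0.86 ± 0.34). Of 6 members for metabolic enzymes only CYP71B23 and the glycosyltransferase gene UGT87A2 (1.21 ± 0.31) were higher, and the call of UGT87A2 ended without WRKY63 overexpressor array 3 (0.81).

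The WRKY40 overexpressor was compared with Col-0 on the same high light arrays. Of the 112 members tested 12 were lower and 8 were higher, beside 1.12% lower and 1.32% higher of all probe sets tested. The log2 difference of the members tested had a median of 0.15, ran from -2.53 to 3.23, and was above 0 for 66 of the 112, beside 55.4% of all probe sets tested. The median was 0.0455 without Col-0 high light array 2 and 0.2624 without Col-0 high light array 3. The 8 higher calls were less firm. They numbered 3 without Col-0 high light array 1, 4 without Col-0 high light array 2, and 4 without WRKY40 overexpressor high light array 1 or 3.

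AT2G29340, of the short-chain dehydrogenases, enzymes that oxidise or reduce small molecules, gave 156, 128 and 134 in the WRKY40 overexpressor and 764, 592 and 659 in Col-0 after high light, a log2 difference of -2.26 ± 0.18 (SE, limma adjusted p = 2.37e-08). The unnamed 255503_at gave 157, 88.98 and 78.6 in the WRKY40 overexpressor and 689.97, 543 and 578 in Col-0, a difference of -2.53 ± 0.20 (SE, limma adjusted p = 2.37e-08). The groups did not overlap at either and were far apart. AT3G45260, a zinc finger protein gene of the C2H2 type, gave 46.2, 46.4 and 43.96 in the WRKY40 overexpressor and 137, 151 and 129.8 in Col-0, a difference of -1.59 ± 0.25 (SE, limma adjusted p = 0.00057). The unnamed 256681_at gave 220.4, 119 and 141 in the WRKY40 overexpressor and 503, 496 and 449 in Col-0, a difference of -1.63 ± 0.18 (SE, limma adjusted p = 4.19e-06). None of these 4 lost its call when any 1 array was left out.

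The class III peroxidase gene AT1G71695, whose enzyme acts in the cell wall, gave 380.5, 409 and 356 in the WRKY40 overexpressor and 1054, 902 and 869 in Col-0, a difference of -1.297 ± 0.23 (SE, limma adjusted p = 0.0014). The alpha/beta hydrolase gene AT2G47630 gave 273, 239.6 and 202 in the WRKY40 overexpressor and 691, 533 and 607 in Col-0, a difference of -1.36 ± 0.18 (SE, limma adjusted p = 7.54e-05). AT5G44580 gave 1164, 498 and 688 in the WRKY40 overexpressor and 2416, 1723 and 2207 in Col-0, a difference of -1.51 ± 0.24 (SE, limma adjusted p = 0.00062). The groups did not overlap at any of these, and the call of AT5G44580 ended in a fit of only the 6 arrays compared, at the same -1.51. The unnamed 245627_at gave 1081, 671 and 1121 in the WRKY40 overexpressor and 4805, 3636 and 4097 in Col-0, a difference of -2.15 ± 0.39 (SE, limma adjusted p = 0.00204). Of the 12 lower calls, 263582_at (-0.52 ± 0.14) was the smallest in size, and it was lost without Col-0 array 1 (-0.39) or 2 (-0.55) and without WRKY40 overexpressor array 2 (-0.48) or 3 (-0.48).

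The 8 members higher in the WRKY40 overexpressor than in Col-0 after high light were singled out once their values had been seen. AT2G18690 gave 2184, 2024 and 1579 in the WRKY40 overexpressor and 422, 509 and 715 in Col-0, a difference of 1.83 ± 0.36 (SE, limma adjusted p = 0.00483). The unnamed 256933_at gave 444, 305 and 418 in the WRKY40 overexpressor and 68.1, 17.7 and 73.96 in Col-0, a difference of 3.07 ± 0.58 (SE, limma adjusted p = 0.0035). The groups did not overlap at these 2 probe sets, and neither call was lost without any 1 array. The unnamed 250286_at differed by 2.95 ± 0.58, a call that no single array ended. The unnamed 260225_at differed by 3.23 ± 0.76, a call that ended without Col-0 array 1 (2.998) or 2 (2.39) or WRKY40 overexpressor array 1 (3.01) or 3 (3.20). AT5G08240 differed by 2.199 ± 0.58, a call that ended without any 1 of 5 of the 6 arrays (1.74 to 2.47). The call of 266070_at (2.02 ± 0.44) ended without Col-0 array 1 (1.80) or 2 (1.90) or WRKY40 overexpressor array 3 (1.81), and that of 254271_at (1.96 ± 0.51) without any 1 of the 6 arrays (1.78 to 2.19). In untreated leaves AT2G18690 had given 134, 124 and 69.9 in the WRKY40 overexpressor and 136, 337 and 363 in Col-0. By kind of product, the lower calls held 1 kinase, 1 secreted protein, 2 enzymes and the zinc finger protein, and the higher calls held AT4G00700 from the membrane group (3.11 ± 0.72, lost without Col-0 array 1, 2.51, or 2, 2.85, or WRKY40 overexpressor array 1, 2.64).

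Set directly against each other after high light, the overexpressors could be compared on arrays the rule did not use. The WRKY63 overexpressor was higher than the WRKY40 overexpressor at 71 of the 112 members tested and lower at 0, beside 7.4% higher and 9.54% lower of all probe sets tested. An unadjusted p under 0.05 was found for 81 of the 112, beside 30.3% of all probe sets tested. The median log2 difference was 1.77 over the members tested and -0.09 over all probe sets tested. Kinases were higher at 6 of 9 probe sets, secreted proteins at 8 of 10, the membrane group at 5 of 9 and enzymes at 4 of 6. ATPMEPCRB differed by 3.17 ± 0.33, AT5G52750 by 3.19 ± 0.35, AT5G38210 by 2.89 ± 0.50 and AT4G08850 by 2.76 ± 0.31. AT2G29340 differed by 2.56 ± 0.18 with 877, 828 and 755 in the WRKY63 overexpressor. Its difference between the WRKY63 overexpressor and Col-0 was 0.29 ± 0.18 and was not called. SBT3.3 gave 96.1, 40.7 and 118 in the WRKY63 overexpressor and 126, 91.8 and 107 in the WRKY40 overexpressor, and these overlapped.

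The knockouts were not used by the rule. After high light 31 of the 112 members tested were higher in the WRKY40 knockout than in Col-0 and 7 were lower, beside 7.38% and 7.86% of all probe sets tested. The median log2 difference was 0.55 over the members tested and 0.05 over all. The count of higher members was 20 without Col-0 high light array 2 and 20 without WRKY40 knockout high light array 2, which had the highest member median of its group (260.4). The higher members held 3 of 10 secreted proteins, 3 of 9 in the membrane group, 1 of 9 kinases and 1 of 6 enzymes. This comparison shares its Col-0 arrays with those of the overexpressors.

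The lipid transfer protein gene AT5G55450, of a family of small secreted proteins, gave 1672, 4107 and 2409.8 in the WRKY40 knockout and 202, 196 and 228 in Col-0, a log2 difference of 3.61 ± 0.49 (SE, limma adjusted p = 5.38e-06). The unnamed 266070_at gave 1212, 2097 and 1286 in the WRKY40 knockout and 68.9, 79.2 and 149.7 in Col-0, a difference of 3.97 ± 0.44 (SE, limma adjusted p = 2.09e-07). The unnamed 260225_at gave 142, 311 and 180.4 in the WRKY40 knockout and 11.6, 4.42 and 77.8 in Col-0, a difference of 3.52 ± 0.76 (SE, limma adjusted p = 0.0018). At 266070_at and AT5G55450 every array of the WRKY40 knockout and of the WRKY63 overexpressor lay above every Col-0 array. The WRKY63 overexpressor gave 709, 748 and 1090.4 for AT5G55450, a difference from Col-0 of 1.99 ± 0.49 that was not called without its array 3 (1.80). The unnamed 245038_at gave 449, 1101 and 689 in the WRKY40 knockout and 150.3, 14.7 and 102 in Col-0, a difference of 3.48 ± 0.63 (SE, limma adjusted p = 0.000249).

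The 7 members lower in the WRKY40 knockout than in Col-0 were 6.25% of those tested, beside 7.86% of all probe sets tested. The unnamed 254255_at gave 6.99, 6.27 and 35.1 in the WRKY40 knockout and 148, 83.9 and 134 in Col-0 after high light, a difference of -3.22 ± 0.40 (SE, limma adjusted p = 1.5e-06). The unnamed 245265_at gave 60.1, 67.8 and 56.01 in the WRKY40 knockout and 566, 365 and 505 in Col-0, a difference of -2.93 ± 0.33 (SE, limma adjusted p = 3.38e-07). AT2G15042 gave 30.8, 28.3 and 2.4 in the WRKY40 knockout and 84.4, 69.3 and 85.5 in Col-0, a difference of -2.45 ± 0.55 (SE, limma adjusted p = 0.00253). All 3 were below every Col-0 array on every knockout array. AT5G44580 was lower in the WRKY40 knockout too, with 476, 389 and 375 against 2416, 1723 and 2207 in Col-0, a difference of -2.35 ± 0.24 (SE, limma adjusted p = 7.11e-08). It was lower in the WRKY40 overexpressor as well, as given above, so that both WRKY40 lines lay below Col-0 at this gene.

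In the WRKY63 knockout after high light limma called 0 of the 112 members tested in either direction against Col-0. It called 0.00628% of all probe sets higher and 0.0188% lower, and 7 members had an unadjusted p under 0.05, beside 8.3% of all probe sets tested. The median log2 difference of the members was -0.06 and the differences ran from -2.03 to 1.46. The count was 0 under every other setting tried, and limma was the only tool run. The errors of single members were wide, as at CHI (-0.07 ± 0.70) and AT1G51890 (-0.76 ± 0.49), with 3 arrays a group. These errors rest on a spread pooled over all 10 groups and do not measure the compared groups alone. At CHI the signal had a mean of 118 (standard deviation 8.38) in the WRKY63 knockout and 130 (45.7) in Col-0.

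The untreated knockouts were set against each other, a comparison that shares no array with the rule. The WRKY63 knockout was lower than the WRKY40 knockout at 35 of the 112 members tested and higher at 7, beside 4.57% lower and 7.33% higher of all probe sets tested. The median log2 difference was -0.74 over the members tested and -0.02 over all. Secreted proteins were lower at 4 of 10 probe sets, the membrane group at 4 of 9, enzymes at 2 of 6 and kinases at 1 of 9.

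The probe set 266070_at gave 29.8, 30.7 and 39.2 in the untreated WRKY63 knockout and 3088, 1741 and 2153 in the untreated WRKY40 knockout, a log2 difference of -6.06 ± 0.44 (SE, limma adjusted p = 1.01e-10). The probe set 251625_at gave 123, 157 and 190.4 in the WRKY63 knockout and 5695, 4844 and 6328 in the WRKY40 knockout, a difference of -5.17 ± 0.63 (SE, limma adjusted p = 1.14e-06). The chitinase family gene CHI gave 55.03, 24.1 and 54.9 in the WRKY63 knockout and 1588, 772 and 1280.2 in the WRKY40 knockout, a difference of -4.76 ± 0.70 (SE, limma adjusted p = 1.91e-05). The knockouts did not overlap at any of these and were far apart. The probe set 254975_at gave 19.7, 28.9 and 1.76 in the WRKY63 knockout and 220.5, 220.5 and 222 in the WRKY40 knockout, a difference of -4.22 ± 1.07 whose call ended without WRKY63 knockout array 3 (-3.16). The ankyrin repeat gene AT4G11000 differed by -2.25 ± 0.35, AT5G55450 by -3.22 ± 0.49, ATPMEPCRB by -1.82 ± 0.33 and AT4G00700 by -3.41 ± 0.72.

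The 7 members higher in the WRKY63 knockout than in the WRKY40 knockout were 6.25% of those tested, beside 7.33% of all probe sets tested. They were led by the probe sets that were low in the WRKY40 knockout after high light. The probe set 245265_at gave 2688, 4068 and 5655 in the untreated WRKY63 knockout and 159.6, 338 and 294 in the untreated WRKY40 knockout, a difference of 3.97 ± 0.33 (SE, limma adjusted p = 1.58e-09). AT2G15042 gave 152, 135 and 232 in the WRKY63 knockout and 6.66, 21.9 and 30.9 in the WRKY40 knockout, a difference of 3.25 ± 0.55 (SE, limma adjusted p = 0.000134). AT5G44580 gave 1601, 2136 and 2325 in the WRKY63 knockout and 182, 261 and 389.7 in the WRKY40 knockout, a difference of 2.91 ± 0.24 (SE, limma adjusted p = 1.48e-09). In untreated Col-0 the signals of AT5G44580 were 1948, 1799 and 2084, overlapping with those of the WRKY63 knockout. The probe set 254255_at differed by 3.13 ± 0.40 and gave 11.8, 9.22 and 17.7 in the WRKY40 knockout.

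The response to high light was read first in the knockouts, whose arrays played no part in the choice. In the WRKY63 knockout 27 of the 112 members tested rose and 24 fell, beside 14.2% and 32.3% of all probe sets tested. In the WRKY40 knockout 24 rose and 27 fell, beside 14.3% and 29%. Rises were 24.1% and falls 21.4% of the members tested in the WRKY63 knockout, and 21.4% and 24.1% in the WRKY40 knockout. Over all probe sets tested the median log2 response was below 0 in all 5 lines, from -0.25 in the WRKY63 overexpressor to -0.17 in the WRKY40 overexpressor. Array medians were lower after high light too, and the part of the scaling in the falls was not tested. Both knockouts rose at 19 members, 17% of those tested, beside 10.8% of all probe sets tested, and both fell at 20, or 17.9%, beside 22.8%. The 19 are 19 of 27 rises in the WRKY63 knockout and 19 of 24 in the WRKY40 knockout, the 20 are 20 of 24 falls in the WRKY63 knockout and 20 of 27 in the WRKY40 knockout, and no member rose in one knockout and fell in the other. Over all probe sets tested, the shared rises were 76.3% of the rises in the WRKY63 knockout and 75.2% of those in the WRKY40 knockout, the shared falls were 70.6% of the falls in the WRKY63 knockout and 78.7% of those in the WRKY40 knockout, and 0.0816% went opposite ways. For the difference between these responses limma called 0 members in either direction, while 13 had an unadjusted p under 0.05, beside 9.12% of all probe sets tested.

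The unnamed 251282_at gave 912, 755 and 770.2 after high light and 99.1, 42.6 and 81.2 untreated in the WRKY63 knockout, a log2 response of 3.51 ± 0.53 (SE, limma adjusted p = 5.56e-06). In the WRKY40 knockout it gave 1366, 1092 and 1225 after high light and 138, 16.7 and 15.8 untreated. AT3G10930 gave 644, 344 and 642 after high light and 22.6, 8.66 and 122 untreated in the WRKY63 knockout, a response of 4.104 ± 0.73 (SE, limma adjusted p = 5.4e-05). Its response in the WRKY40 knockout was 4.82 ± 0.73. AT1G05340 gave 719, 1034 and 378 after high light and 54.6, 67.4 and 49.3 untreated in the WRKY63 knockout, a response of 3.51 ± 0.74 (SE, limma adjusted p = 0.000374). Its level after high light reached 5609, 4876 and 7098 in the WRKY63 overexpressor, the highest of the 5 lines. The unnamed 246099_at responded by 3.39 ± 0.42 in the WRKY63 knockout and 2.94 ± 0.42 in the WRKY40 knockout.

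The largest falls in both knockouts included the ATPase gene ACA.l. It gave 73.5, 51.2 and 54.8 after high light and 351, 353 and 645 untreated in the WRKY63 knockout, a response of -2.85 ± 0.34 (SE, limma adjusted p = 1.48e-07), and its response in the WRKY40 knockout was -2.89 ± 0.34. AT3G18250 gave 8.38, 4.32 and 5.25 after high light and 25.2, 112 and 92.9 untreated in the WRKY63 knockout, a response of -3.27 ± 0.86 (SE, limma adjusted p = 0.00274). In the WRKY40 knockout the AT3G18250 groups overlapped, with 22.2, 121 and 13.2 after high light and 475, 119.95 and 348 untreated. The probe set 245265_at responded by -3.23 ± 0.33 in the WRKY63 knockout and -2.02 ± 0.33 in the WRKY40 knockout. The probe set 257624_at responded by -2.44 ± 0.92 in the WRKY63 knockout and -2.65 ± 0.92 in the WRKY40 knockout. Its call in the WRKY63 knockout ended without any of 5 of the 6 arrays, with -2.19 without untreated array 3, and in the WRKY40 knockout it ended without untreated array 1 (-2.58) or 2 (-2.62) or high light array 1 (-1.19).

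In the other lines the untreated arrays are those that chose the members, so the choice bears on these responses and the counts are given without a reading. It favours rises in the WRKY40 overexpressor, where members were chosen as low, and falls in the WRKY63 overexpressor, where they were chosen as high. In the WRKY63 overexpressor 13 of the 112 members tested rose with high light and 42 fell, beside 15.9% and 35.3% of all probe sets tested. In the WRKY40 overexpressor 49 rose and 10 fell, beside 14.2% and 26.7%. In Col-0 12 rose and 48 fell, beside 14.9% and 29%. The secreted group, with the same limit, had 2 rises and 5 falls of 10 in the WRKY63 overexpressor. It had 6 rises and 2 falls in the WRKY40 overexpressor, and 1 rise and 4 falls in Col-0. AT1G24140 gave 133, 203 and 139.8 after high light and 27.2, 33.4 and 17.3 untreated in the WRKY40 overexpressor, beside 106, 129 and 179 after high light and 16.00, 122 and 104 untreated in Col-0. The secreted DUF26 protein gene AT5G48540 gave 668, 328 and 357 after high light and 51.8, 119 and 88.9 untreated in the WRKY40 overexpressor. In Col-0 it gave 549, 457 and 574 after high light and 178, 277 and 229 untreated.

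The untreated knockouts against Col-0 also use the Col-0 arrays of the rule, and their counts are given without a reading. The WRKY63 knockout was higher at 1 and lower at 7 of the 112 members tested, beside 0.226% and 0.276% of all probe sets tested. The WRKY40 knockout was higher at 9 and lower at 8, beside 6.86% and 7.4%. AT5G55450 gave 229.7, 200.2 and 686 in the WRKY63 knockout, 3066, 2307 and 3676 in the WRKY40 knockout and 720.1, 1153 and 809.5 in Col-0. Its levels in the untreated WRKY63 overexpressor, 2921, 2094 and 2573, overlapped with those of the untreated WRKY40 knockout. ATPMEPCRB gave 77.9, 63.5 and 122 in the WRKY63 knockout, 259, 341 and 311 in the WRKY40 knockout and 168, 172 and 190.2 in Col-0.

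Gene lists for defence hormones, receptors, WRKY factors and calcium sensors could be read only in part, because few of their genes have a named probe set, and no listed gene is a member. Of 10 calcium sensor genes of the calmodulin-like type, 7 were tested, of which 4 were higher in the WRKY63 overexpressor than in Col-0 after high light (median log2 difference 1.97) and 1 was higher in the WRKY40 overexpressor (median 1.14), beside the 5.49% and 1.32% of all probe sets tested that are given above. CML47 differed by 3.001 ± 0.44 and CML46 by 2.66 ± 0.38 in the WRKY63 overexpressor, against 1.74 ± 0.44 and 1.14 ± 0.38 in the WRKY40 overexpressor, where only CML47 was called. CML38, CML42 and CML43 were not called in the WRKY63 overexpressor (1.205 ± 0.57, -0.13 ± 0.22 and 0.203 ± 0.49). Of 56 WRKY genes 6 were tested, and WRKY47 (1.78 ± 0.37) was higher in the WRKY63 overexpressor along with WRKY53 and WRKY6, while WRKY1 (0.05 ± 0.18), WRKY20 (-0.26 ± 0.12) and WRKY22 (0.84 ± 0.55) were not called. The kinase gene BIK1, which acts downstream of immune receptors, was higher in the WRKY63 overexpressor (0.74 ± 0.18, limma adjusted p = 0.0112) and lower in the WRKY40 overexpressor (-1.12 ± 0.18, limma adjusted p = 0.000734), each against the same Col-0 arrays. The salicylate list had 2 genes tested, of which SAG101 was higher in the WRKY63 overexpressor (1.75 ± 0.31) and SARD4 was not called (0.61 ± 0.21). The other lists had at most 2 probe sets tested each.

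By position, a few of the 60 named genes are neighbours in the TAIR10.1 gene table. AT1G65490 and AT1G65510 have 1 gene between them, and AT5G55420 and AT5G55450 have 2. The other near pairs are further apart, AT2G44240 and AT2G44380 with 15 genes between them, and AT1G13210 (ACA.l), AT1G13340 and AT1G13470 with 16 between each.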

How the data were processed

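Per the labels, RNA of 30 leaf samples in 10 groups of 3 was hybridised to 1 Affymetrix ATH1 array each. The values are MAS5 signals, linear-scale intensities as the authors deposited them per the submitters' processing notes; the version of the software is not given in the sources used here. The deposited intensities had a trimmed mean (2 percent off each end) near 500 on every array, so array totals were already scaled. Names came from GEO's platform annotation, in which of the probe sets 13513 had 1 gene, 503 several and 8730 none, and gene order came from the TAIR10.1 gene table.

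Signals were taken as log2(signal + 1) with no further scaling. The added 1 shrinks fold changes of dim probe sets, which still depend on signals near the floor and on the pseudocount. The 64 control probe sets were left out, as were those with a mean below the 30th percentile, log2 5.57, over all arrays, leaving 15922. Means of the 10 groups were fitted with limma 3.58.1 in R 4.3.3, with an intensity trend in the moderated variance. The SE of a probe set rests on its spread pooled over all 10 groups, among them the untreated groups that chose the members. P-values were adjusted by Benjamini-Hochberg over all 15922, with calls at an adjusted p under 0.05. The calculation was also run on simulated data with independent noise of equal spread in every group, without pseudocount or filter. The real data differ in these points, so that run does not give the error rates of the calls here. Array data carry no read depth, and the number of arrays limits the precision.

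The members, the gene lists and the tests were chosen with earlier results of these data known, and the grouping by gene product was drawn up after values had been seen. Contrasts of untreated overexpressors and Col-0 chose the members, and no test of them is given. Genes named in the text are the 8 with the widest gap between untreated overexpressors, the 8 called lower in the WRKY40 overexpressor and the 8 called higher in the WRKY63 overexpressor after high light with the largest differences, the 4 each way in the WRKY40 knockout and between untreated knockouts, and the 4 each way called in both knockouts' light responses; other genes named were picked after values were seen. Replicate numbers recur in every group and were not used to pair arrays in the main fit. Over 135 pairs of arrays of the same number the correlation of deviations from group means ran from -0.161 to 0.319 (median 0.025), with 33 above 0.1. Arrays of different numbers were not correlated for reference, so whether some arrays of the same number share a batch is not known. Alternatives were another pseudocount, filter and normalization, a replicate block, and arrays left out. The series' design text names WRKY60 where its title and labels name WRKY63, and the labels were followed. Promoter sequences were not used here.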

Additional observations from a re-analysis of the deposited data

Results flagged for a closer look

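At 5 members the difference from Col-0 after high light was called in opposite directions, higher in the WRKY63 overexpressor and lower in the WRKY40 overexpressor, and limma's direct test between the overexpressors was called too. Another 8 members were called higher in both overexpressors, and 63 were higher in the WRKY63 overexpressor and not called in the WRKY40 overexpressor. The share of such joint calls over all probe sets tested was not counted. Both differences from Col-0 use the same 3 Col-0 arrays, and the direct difference between the overexpressors follows from them. Its call is therefore no separate support.

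The kinase gene AT1G76360 gave 679.8, 364 and 752 in the WRKY63 overexpressor, 96.9, 132 and 144 in the WRKY40 overexpressor and 276, 269.6 and 338 in Col-0, and the overexpressors differed by 2.21 on the log2 scale. Its call of the WRKY63 overexpressor against Col-0 (0.96 ± 0.28) ended without Col-0 array 1 (0.92) or 2 (0.90) or WRKY63 overexpressor array 1 (0.83) or 3 (0.76), and that of the WRKY40 overexpressor (-1.25 ± 0.28) without Col-0 array 3 (-1.15) or WRKY40 overexpressor array 1 (-1.08). The peroxidase gene AT1G71695 gave 1255, 2229 and 1372 in the WRKY63 overexpressor, 380.5, 409 and 356 in the WRKY40 overexpressor and 1054, 902 and 869 in Col-0, a difference of 2.03. At AT1G71695 the call of the WRKY63 overexpressor against Col-0 (0.74 ± 0.23) ended without any Col-0 array (0.68 to 0.82) and without WRKY63 overexpressor array 2 (0.48) or 3 (0.83).

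AT1G65490 was the brightest of the 5, with 12853, 12130.3 and 12988 in the WRKY63 overexpressor, 3502, 3334 and 2774 in the WRKY40 overexpressor and 7235, 8358 and 7570 in Col-0, and the overexpressors differed by 1.99. Its call of the WRKY63 overexpressor against Col-0 (0.71 ± 0.18) ended without Col-0 array 1 (0.67) or WRKY63 overexpressor array 3 (0.70). The unnamed 262092_at gave 834, 629 and 769 in the WRKY63 overexpressor, 177, 182 and 160.2 in the WRKY40 overexpressor and 462, 391 and 383 in Col-0, a difference of 2.09 between the overexpressors. Its call of the WRKY63 overexpressor against Col-0 ended without Col-0 array 2 (0.81) or 3 (0.80) or WRKY63 overexpressor array 1 (0.76) or 3 (0.82). The unnamed 263582_at gave 2412, 2702 and 2667 in the WRKY63 overexpressor, 826, 685 and 688 in the WRKY40 overexpressor and 1263, 1010.2 and 909 in Col-0, a difference of 1.83 between the overexpressors. Its call of the WRKY40 overexpressor against Col-0 (-0.52 ± 0.14) ended without Col-0 array 1 (-0.39) or 2 (-0.55) or WRKY40 overexpressor array 2 (-0.48) or 3 (-0.48). At all 5 members the 3 lines did not overlap on any array. The 5 were picked by their opposite calls, which makes such a separation likely, so it is no added support.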

How the results depend on the processing

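The number of members was 56 with a threshold of -1.5 for the WRKY40 overexpressor, 94 with a pseudocount of 16, and 126 after quantile normalization, and leaving out 1 array gave 105 to 146. With a filter at the 50th percentile the counts after high light were 3 higher in the WRKY40 overexpressor (of 8), 47 higher in the WRKY63 overexpressor (of 76) and 20 higher in the WRKY40 knockout (of 31), and falls with high light numbered 14 in the WRKY40 knockout (of 27) and 26 in Col-0 (of 48). Fewer probe sets were tested there, and no called member that was still tested lost its call. Counting both directions, all 15 such members of the WRKY40 overexpressor, all 47 of the WRKY63 overexpressor and all 25 of the WRKY40 knockout kept their calls against Col-0 after high light. For the light response all 32 kept theirs in the WRKY40 knockout and all 35 in Col-0. Leaving out 1 array gave 54 to 84 members higher in the WRKY63 overexpressor, 3 to 7 in the WRKY40 overexpressor, 20 to 30 in the WRKY40 knockout, and 26 to 34 lower in the WRKY63 knockout than in the WRKY40 knockout untreated.

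Medians near 0 changed sign. The median difference of the WRKY40 overexpressor from Col-0 after high light was -0.075 with the 50th percentile filter. The median light response was 0.1268 in the WRKY63 knockout and 0.0272 in the WRKY40 knockout with that filter, 0.0635 in the WRKY63 knockout after quantile normalization, and -0.1955 to 0.0186 there without 1 array. The median of the WRKY63 knockout against Col-0 after high light ran from -0.1068 to 0.025 without 1 array. The filter leaves the log2 difference of each member unchanged and alters only which members are tested. The cause of the other changes was not tested. With the replicate block the counts were 76 higher in the WRKY63 overexpressor and 8 higher and 12 lower in the WRKY40 overexpressor after high light. The search of promoters for W-boxes was not run.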
